A study of Rattus norvegicus with 70 samples.

Results

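The regions described here are the promoter-proximal windows of 8 rat genes, Fam110a, Septin9, Nr4a3, Sox7, Gp1bb, Arhgef2, Znf597 and Cdk5r1, in liver DNA enriched for methylated fragments. The genes were picked by name because their signal was higher at terminal euthanasia than at partial hepatectomy. They hold 11 of the 17174 regions in the deposited tables: 3 for Septin9, 2 for Nr4a3 and 1 for each of the other genes. Each region spans 5625 bp, from 4500 bp upstream of a transcript start to a shorter stretch downstream of it. The difference between the times chose the genes, so that difference is given here as a description and not as a test.

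Livers came from Crj:CD(SD)IGS rats, an outbred Sprague-Dawley stock, in a carcinogenesis scheme of an initiating treatment, a withdrawal and a promotion. There were 7 conditions at 2 times with 5 libraries in each of the 14 groups, 70 libraries in all. A pair of conditions had vehicle, 0.5% methylcellulose, in place of an initiator, followed by plain water or by phenobarbital (PB). The other 5 conditions had an initiator followed by phenobarbital: diethylnitrosamine (DEN) at a dose of 3 or 30 mg/kg, 45 mg/kg thioacetamide, 100 mg/kg of methapyrilene or acetaminophen at 1000 mg/kg. Initiation lasted 2 weeks, or 1 week for DEN at 30 mg/kg because the animals lost weight, and withdrawal lasted 2 weeks. Phenobarbital was given in the drinking water at 500 ppm. Every animal, including those on vehicle and water, had part of the liver removed after 1 week of promotion, and euthanasia followed after 6 weeks. The later livers had therefore regrown after surgery, and time on promotion, age, the regrowth and the separate deposited table of each time cannot be told apart. The labels give 5 rat livers for each group, they do not give sex or age, and they do not say whether both times came from the same animals. Whole liver was used, so more methylation per cell and more cells of a methylated type cannot be told apart.

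Methylation here means a methyl group on cytosine in the pair CG, written CpG. Methylated CpGs bind a methyl-binding protein, and the fragments it holds are sequenced, so a region gathers more reads when more of its DNA copies are methylated and when it holds more CpGs. Promoters dense in CpG are usually free of methylation in normal tissue, while methylation at the edges of such promoters and at alternative starts differs between tissues. The signal is a level of captured reads in a window and does not give the share of CpGs that is methylated.

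Every library was scaled by the authors to the same constant of 50 M in both tables, so a signal of 1 is close to 1 read (0.883 to 1.19 per read). The libraries put 0.933 to 1.80 M reads into the regions, with a median of 41 to 69 reads per region. In 9 libraries, 4 at hepatectomy and 5 at terminal euthanasia, under 1% of regions had no read, against at least 1.60% in the others. Their reads were spread more evenly over the regions. Their summed signal over all regions was also the lowest, at 1004200 to 1217250 against at least 1223330 in the others. A further set of 10 libraries was numbered 61 to 70 in the titles, all the fifth of their group. Their scaling totals equalled those of libraries 1 to 10 in the same order, all from hepatectomy. These 10 put a median of 1.58 M reads into the regions, against 1.34 M in the other libraries. Whether their totals are their own is not stated, and what this does to their signal was not tested. The summed signal of all regions had a median of 1341080 at hepatectomy and 1377200 at terminal euthanasia. Tissue identity cannot be read from methylation at marker genes as it can from RNA. None of 20 marker gene regions for hepatocytes, macrophages, endothelial, stellate, biliary and lymphoid cells passed the threshold between the times. Over all tested regions 0.0671% were higher and 0% lower at that threshold, so passing none of 20 says little. The median differences of the 6 marker lists ran from -0.08 to 0.19 (log2). Regions above 0 numbered 0 of 3 for hepatocytes, 2 of 2 for macrophages and 3 of 3 for endothelial cells. They numbered 3 of 3 for stellate, 2 of 2 for biliary and 7 of 7 for lymphoid cells, with a lymphoid median of 0.00. Of all tested regions 70.4% were above 0. The summed signal of the 3 hepatocyte marker regions (Alb, Tat and Ttr) had a median of 287 at hepatectomy and 279 at terminal euthanasia, with ranges of 204 to 449 and 156 to 486. For the 2 macrophage regions (Cd68 and Csf1r) the medians were 153 and 164, with ranges of 108 to 272 and 119 to 230. The part of cell composition in the differences below was not tested.

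The starts of the members differed widely in CpG content, which the choice of genes did not use. Promoter sequences, 250 bases before to 50 after a start, were matched by symbol in RefSeq (GRCr8) for 6 of the 8 genes, Znf597 under its RefSeq symbol Zfp597. Over all 33469 promoters in that table the median was 7 CpGs, with quartiles of 3 and 19. The single promoter of Cdk5r1 held 42 CpGs, a number that 2.40% of promoters reach. Arhgef2 had 22, Gp1bb 21 and Znf597 20. Fam110a had 4 promoters with 3, 4, 16 and 22 CpGs, and its region was not assigned to any of these. Septin9 had 3 promoters with 13, 19 and 3 CpGs. Their spacing, 32890 and 66997 bases, follows that of the 3 Septin9 regions in the deposited tables, 33368 and 68278 bases, so each promoter is paired here with the region of the same rank along the plus strand. The following 5 sequences are shown because the Septin9 starts behaved differently and Gp1bb had the highest signal. Among them is Cdk5r1, the densest in CpG of the 6 matched genes. They run 5′ to 3′ in lower case with each CpG in capitals.

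Septin9 1st start (GRCr8 chr10:102943156-102943455, plus strand): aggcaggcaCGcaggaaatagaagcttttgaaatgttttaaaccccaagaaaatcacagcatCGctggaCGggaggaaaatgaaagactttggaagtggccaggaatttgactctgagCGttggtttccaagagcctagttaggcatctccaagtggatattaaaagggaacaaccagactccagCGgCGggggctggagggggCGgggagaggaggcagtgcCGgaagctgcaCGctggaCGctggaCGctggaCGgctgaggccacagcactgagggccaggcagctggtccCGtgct

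Septin9 2nd start (GRCr8 chr10:102976046-102976345, plus strand): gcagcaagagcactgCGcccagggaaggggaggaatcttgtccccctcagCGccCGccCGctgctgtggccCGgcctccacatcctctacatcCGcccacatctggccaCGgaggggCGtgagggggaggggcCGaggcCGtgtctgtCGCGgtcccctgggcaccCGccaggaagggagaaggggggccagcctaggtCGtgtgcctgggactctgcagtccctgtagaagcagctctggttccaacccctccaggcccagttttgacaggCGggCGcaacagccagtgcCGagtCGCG

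Septin9 3rd start (GRCr8 chr10:103043043-103043342, plus strand): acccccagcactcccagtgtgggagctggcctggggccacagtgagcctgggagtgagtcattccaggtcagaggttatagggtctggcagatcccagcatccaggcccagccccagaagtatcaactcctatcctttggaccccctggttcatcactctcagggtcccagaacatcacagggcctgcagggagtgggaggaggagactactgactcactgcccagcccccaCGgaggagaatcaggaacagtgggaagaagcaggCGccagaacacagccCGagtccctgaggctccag

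Cdk5r1 (GRCr8 chr10:65981765-65982064, plus strand): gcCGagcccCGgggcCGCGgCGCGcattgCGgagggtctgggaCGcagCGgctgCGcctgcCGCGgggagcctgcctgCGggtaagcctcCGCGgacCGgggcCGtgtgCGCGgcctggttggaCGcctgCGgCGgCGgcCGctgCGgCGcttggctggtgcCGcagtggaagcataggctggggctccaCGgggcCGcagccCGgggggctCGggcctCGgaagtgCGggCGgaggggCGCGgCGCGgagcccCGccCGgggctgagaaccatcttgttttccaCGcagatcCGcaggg

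Gp1bb (GRCr8 chr11:95882311-95882610, plus strand): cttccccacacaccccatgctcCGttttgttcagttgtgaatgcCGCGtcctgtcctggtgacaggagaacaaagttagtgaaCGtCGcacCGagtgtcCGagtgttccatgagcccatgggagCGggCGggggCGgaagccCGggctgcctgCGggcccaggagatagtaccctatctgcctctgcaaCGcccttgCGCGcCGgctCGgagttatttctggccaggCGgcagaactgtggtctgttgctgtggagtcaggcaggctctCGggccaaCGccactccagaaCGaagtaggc

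No source used here names the build of the deposited coordinates, and coordinates of regions below are those of the files. Differences are terminal minus hepatectomy on log2(signal + 1), the mean of the 7 conditions with 35 libraries at each time, from a limma fit across 16385 regions that had a value of 10 or more in at least 5 libraries. All 11 member regions passed that filter. Of the 16385 regions, 11 were higher at terminal euthanasia at a Benjamini-Hochberg adjusted p of 0.05, which is 0.0671%, and 0 were lower (0%). At an unadjusted p under 0.05, 985 were higher and 94 lower in the same limma fit. Among the 11 higher regions were 8 of the member regions, 1 for each gene, which is how the genes were chosen and is read as nothing more. The other 3 were those of Cbx8, Hist1h4b and Hist1h2bn. The median difference over all tested regions was 0.05, and 70.4% were above 0. Among members, Sox7 lay nearest to the threshold from inside with a difference of 0.42. Nearest from outside were Clcn5 at 0.46, Coasy at 0.43 and Plcb3 at 0.75, none of which is a member.

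**Figure D1:**
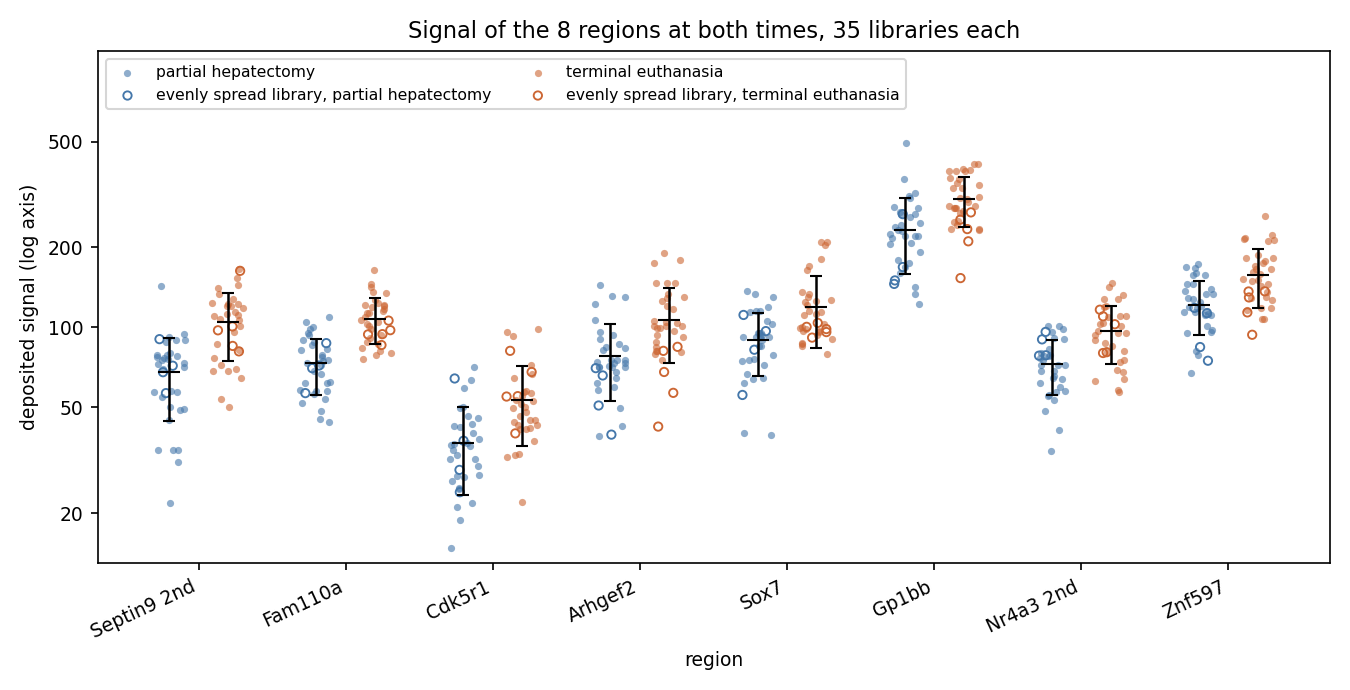
Deposited signal (log axis) of the 8 regions that were higher at terminal euthanasia, 1 point per library, with mean and SD over 35 libraries at each time; open circles are the 9 libraries with evenly spread reads. The ranges of the times overlap in every region, and the mean is higher at terminal euthanasia in each, from 36.8 to 53.5 in Cdk5r1 and from 233 to 303 in Gp1bb.

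Of the members with a role in the cytoskeleton and cell division, Septin9 had the largest difference. Septins are GTP-binding proteins that assemble into filaments at the cell cortex and the cleavage furrow, and SEPT9 methylation is used as a blood marker for colorectal cancer. The 2nd Septin9 region (transcript NM_031837, chr10:107372540-107378165, plus strand) ranged from 21.9 to 143 at partial hepatectomy with a median of 71.7. At terminal euthanasia it ranged from 50.1 to 166 with a median of 107. The mean went from 67.7 ± 23.4 to 105 ± 29.9 (SD, n = 35 each), a difference of 0.65 (SE 0.09) or 1.57-fold. The ranges overlapped, but 29 of 35 later libraries lay above the earlier median and 4 above the earlier maximum.

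The difference at this start was wide in the livers given acetaminophen, where the 5 hepatectomy libraries had 21.9, 77.1, 34.7, 34.7 and 71.7 and the 5 terminal libraries 53.6, 133, 101, 111 and 119. The groups still overlapped there. In livers given vehicle and water the hepatectomy libraries had 45.0, 70.8, 34.4, 49.4 and 67.8 and the terminal ones 64.3, 68.5, 50.1, 120 and 77.0. In that condition the mean was 53.5 and then 76.0, with the groups overlapping.

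At the other starts of Septin9 the levels were closer together. The 1st region (NM_176856, chr10:107339172-107344797) had a mean of 105 ± 19.97 at hepatectomy and 105 ± 22.9 at terminal euthanasia, a difference of 0.00 (SE 0.07). The 3rd (NM_001113497, chr10:107440818-107446443) had 153 ± 36.8 and 169 ± 39.4, a difference of 0.14. Terminal libraries above the hepatectomy median of their region numbered 29 of 35 at the 2nd start, 20 at the 1st and 24 at the 3rd. The 2nd start was thus the lowest of the 3 at hepatectomy, and its later mean reached that of the 1st. The gene was chosen through its 2nd region, so smaller differences at the other starts follow in part from the choice. The starts were not compared in a test. It is also the start with the most CpGs, 19, among the 3 sequences above, and the 3rd, with the highest signal in its window, has 3. The 3rd region still showed separate groups in 1 condition, DEN at 3 mg/kg, with 107 to 169 at hepatectomy and 182 to 236 at terminal euthanasia. How many of all regions separate in this way was not computed.

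**Figure D2:**
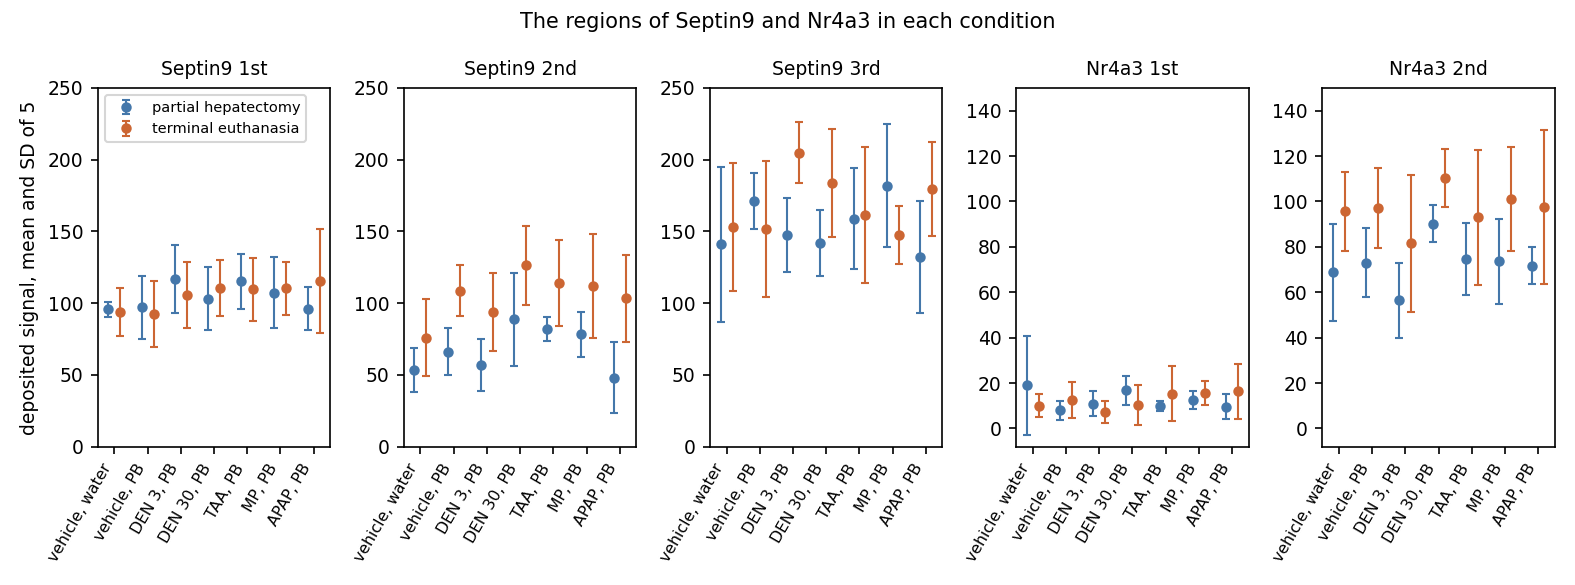
Mean and SD of the deposited signal over 5 libraries in each condition for the 3 Septin9 and 2 Nr4a3 regions, in order along the chromosome (PB, phenobarbital; TAA, thioacetamide; MP, methapyrilene; APAP, acetaminophen). The 2nd region of each gene, through which the gene was chosen, is higher at terminal euthanasia in all 7 conditions. The differences of the other regions lie on both sides of 0.

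Fam110a encodes a protein of the centrosome and spindle pole that is tied to cell cycle progression. Its region (NM_001014050, chr3:142327447-142333072, minus strand) ranged from 44.2 to 109 at hepatectomy with a median of 72.4, and from 76.0 to 164 at terminal euthanasia with a median of 106. Its mean moved from 73.2 ± 17.5 to 108 ± 21.1 (SD, n = 35 each), a difference of 0.57 (SE 0.07) or 1.48-fold. All 35 terminal libraries lay above the hepatectomy median, and 16 lay above the hepatectomy maximum.

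After vehicle and phenobarbital the hepatectomy libraries of Fam110a had 82.2, 78.9, 62.5, 57.8 and 44.2 and the terminal ones 103, 107, 114, 118 and 85.8. Those groups did not overlap, and neither did those given methapyrilene, at 68.7 to 89.3 against 97.6 to 122. Such gaps, here and in the regions below, come from the values that chose the genes and are descriptions. The share of all regions with such a gap was not computed. With DEN at 30 mg/kg the hepatectomy libraries had 51.8, 62.02, 56.6, 70.3 and 98.6 and the terminal ones 123, 135, 94.3, 146 and 137. There 1 terminal library, with evenly spread reads, fell below the highest hepatectomy library. Vehicle and water gave 77.7 ± 21.1 against 89.3 ± 12.3 (SD, n = 5 each), with overlapping ranges.

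Cdk5r1 encodes p35, the activator of the kinase CDK5, best known in neurons. Its region (NM_053891, chr10:68711344-68716969, plus strand) had the lowest signal of the 8. It ranged from 14.7 to 70.8 at hepatectomy with a median of 35.9 and from 22.03 to 98.8 at terminal euthanasia with a median of 50.3. On average it went from 36.8 ± 13.3 to 53.5 ± 17.8 (SD, n = 35 each), a difference of 0.54 (SE 0.10) or 1.46-fold, and single libraries held 14 to 91 reads. With DEN at 3 mg/kg the 5 hepatectomy libraries had 45.6, 42.4, 33.1, 32.002 and 35.99 and the 5 terminal libraries 53.1, 98.8, 64.4, 53.01 and 57.6, with no overlap. With vehicle and water they had 31.995, 50.3, 36.3, 14.7 and 37.5 and then 55.1, 32.6, 22.03, 42.8 and 33.01, which overlapped over most of their range. Among the 6 genes with a promoter sequence, the one densest in CpG thus had the window with the lowest signal of the 8.

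Arhgef2 encodes GEF-H1, a guanine nucleotide exchange factor that is bound to microtubules. Its region (NM_001012079, chr2:180743813-180749438, plus strand) ranged from 38.99 to 145 at hepatectomy with a median of 73.7 and from 42.3 to 190 at terminal euthanasia with a median of 101. The means were 77.8 ± 25.1 and 107 ± 33.7 (SD, n = 35 each), a difference of 0.45 (SE 0.09) or 1.37-fold. With DEN at 3 mg/kg the hepatectomy libraries had 70.8, 83.6, 70.8, 75.3 and 38.99 and the terminal ones 105, 175, 147, 99.7 and 147, so that the groups did not overlap. With acetaminophen the means were 68.5 ± 11.1 and 81.2 ± 14.7 (SD, n = 5 each), and the ranges overlapped.

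The transcription factors among the members were Nr4a3, Sox7 and Znf597. Nr4a3 encodes NOR-1, an orphan nuclear receptor of the immediate early response, in a family with members whose RNA is induced early after partial hepatectomy. The files name a pair of Nr4a3 starts that are close together, and their regions overlap by 88 bp. The 2nd (NM_017352, chr5:64714505-64720130, plus strand) ranged from 34.3 to 102 at hepatectomy with a median of 72.4 and from 57.3 to 146 at terminal euthanasia with a median of 95.3. Its mean went from 72.7 ± 16.9 to 96.6 ± 23.8 (SD, n = 35 each), a difference of 0.40 (SE 0.08) or 1.32-fold. With DEN at 30 mg/kg the hepatectomy libraries had 91.0, 90.4, 90.1, 78.3 and 102 and the terminal ones 102, 104, 103, 111 and 132, so that 1 earlier library reached the lowest later ones.

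The 1st Nr4a3 region (NM_031628, chr5:64708968-64714593) was close to empty, with a mean of 12.4 ± 9.33 at hepatectomy and 12.5 ± 8.42 at terminal euthanasia and a difference of -0.08 (SE 0.21). Terminal libraries above the hepatectomy median numbered 29 of 35 in the 2nd region and 21 of 35 in the 1st. In the 1st region the evenly spread libraries were the high ones, at 29.9 on average against 10.1 in the other hepatectomy libraries. Nr4a3 was chosen through the window of its 2nd start, so the contrast between its starts follows in part from the choice. The window before it held little signal, and the starts were not compared in a test.

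Sox7 encodes a transcription factor of endothelial and vascular development. Its region (NM_001106045, chr15:43203465-43209090, plus strand) ranged from 39.2 to 137 at hepatectomy with a median of 92.2 and from 79.6 to 209 at terminal euthanasia with a median of 104. The mean went from 89.7 ± 23.95 to 120 ± 36.1 (SD, n = 35 each), a difference of 0.42 (SE 0.09) or 1.33-fold. The medians stood closer than the means because a few terminal libraries were very high. With DEN at 3 mg/kg, for example, the hepatectomy libraries had 66.9, 74.9, 39.99, 79.1 and 89.99 and the terminal ones 85.4, 209, 100, 87.2 and 96.7. The second library alone exceeded the others by a wide margin, and the groups overlapped.

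Znf597 (Zfp597 in RefSeq) encodes a zinc finger protein. Its region (NM_153732, chr10:11916210-11921835, plus strand) ranged from 67.3 to 173 at hepatectomy with a median of 118 and from 93.8 to 262 at terminal euthanasia with a median of 151. On average it went from 121 ± 27.7 to 157 ± 39.1 (SD, n = 35 each), a difference of 0.37 (SE 0.07) or 1.29-fold. This was the smallest difference of the 8 and the only one that did not keep its sign in each condition. With methapyrilene the hepatectomy libraries had 125, 97.5, 116, 160 and 173 and the terminal ones 118, 130, 114, 145 and 129, which overlapped, with a difference of -0.05 (SE 0.20). With DEN at 30 mg/kg they had 146, 67.3, 113, 118 and 169 and then 223, 166, 137, 175 and 262, a difference of 0.67 (SE 0.20).

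Gp1bb encodes the beta subunit of platelet glycoprotein Ib, part of the receptor for von Willebrand factor. Its region (NM_053930, chr11:84365295-84370920, plus strand) had the highest signal of the 8, from 123 to 494 at hepatectomy with a median of 225 and from 153 to 414 at terminal euthanasia with a median of 286. The mean went from 233 ± 73.6 to 303 ± 64.6 (SD, n = 35 each), a difference of 0.41 (SE 0.08) or 1.33-fold. With DEN at 3 mg/kg the ranges were 134 to 225 and 244 to 412 and did not overlap. With thioacetamide the hepatectomy libraries had 267, 261, 239, 273 and 494 and the terminal ones 281, 251, 388, 254.5 and 361, and the means, 307 and 307, were level. The region shares 1023 bp with that of Septin5, which lies next to Gp1bb, so both count some of the same reads. The Septin5 region had 43.5 ± 11.6 and 55.5 ± 14.4 (SD, n = 35 each), a difference of 0.34 that did not pass the threshold (limma, adjusted p = 0.19).

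Without the 9 libraries with evenly spread reads the 8 differences were of the same size and ran from 0.40 in Znf597 to 0.69 in Septin9. Among these 9 libraries alone, the mean was higher at terminal euthanasia in each of the 8 regions, for example 95.6 against 71.5 in Fam110a, 59.9 against 38.7 in Cdk5r1 and 225 against 183 in Gp1bb. These libraries were among those that chose the genes, and their conditions differ between the times, so the means are a description. Without the 10 libraries numbered 61 to 70 the differences ran from 0.34 in Nr4a3 to 0.67 in Septin9, and Nr4a3 no longer passed the adjusted threshold in that fit. The summed signal of a library moved with some of the members: over 70 libraries it had a correlation (Pearson's r) of 0.66 with Gp1bb, 0.62 with Arhgef2 and 0.58 with Znf597, but of 0.34 with Fam110a, 0.27 with the 2nd Septin9 region and 0.24 with Cdk5r1. After scaling each library to its summed signal, an alternative added after the data were seen, the differences were 0.34 in Znf597, 0.38 in Gp1bb and 0.62 in Septin9.

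Across conditions, the difference between the times was above 0 in 55 of the 56 combinations of the 8 regions with the 7 conditions. The median over the 8 regions was 0.71 with DEN at 3 mg/kg, 0.62 with acetaminophen, 0.50 with vehicle and water, 0.47 with DEN at 30 mg/kg, 0.45 with methapyrilene, 0.45 with vehicle and phenobarbital and 0.20 with thioacetamide. In livers that had received neither an initiator nor phenobarbital the 8 differences ran from 0.15 to 0.59. The times did not overlap for 3 of the 8 regions with DEN at 3 mg/kg, 1 with vehicle and phenobarbital and 1 with methapyrilene. In the remaining conditions all 8 overlapped. The share of all regions without overlap was not computed. Each condition entered the mean by which the genes were chosen, so these values and the count of 55 describe the choice and support nothing further. Whether the difference varied between conditions was tested with an F test of time by condition in limma, a contrast the choice of genes did not use. None of the 11 member regions passed, each with an adjusted p of 0.999, and neither did any of the 16385 regions (0%). At an unadjusted p under 0.05, 451 regions stood out in that F test, among them the 3rd Septin9 region at 0.045, while Znf597 reached 0.060. No order of the conditions can be read from these medians beyond the spread between libraries.

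**Figure D3:**
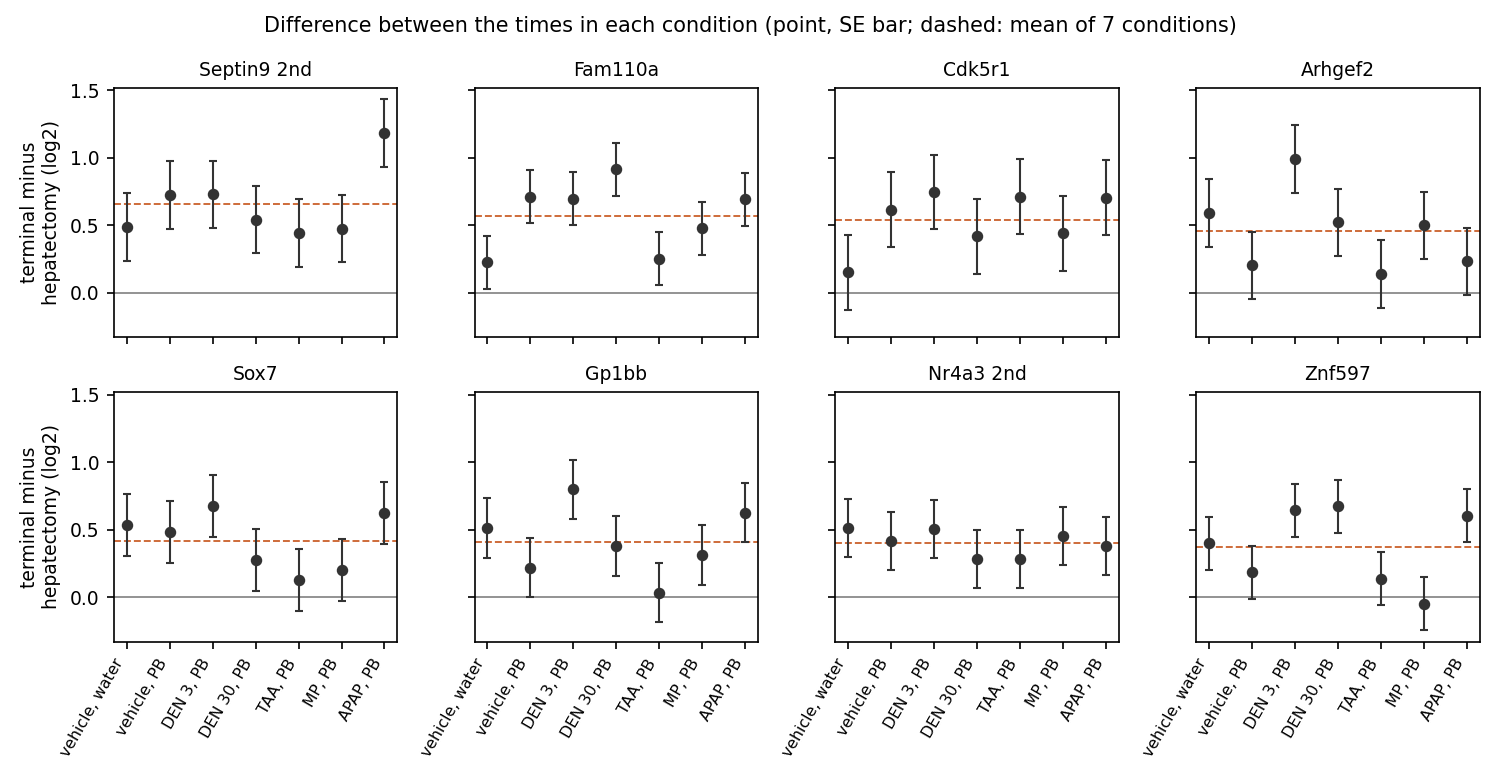
Difference between the times (log2, terminal minus hepatectomy) in each of the 7 conditions for the 8 regions, with SE bars from the limma fit and a dashed line at the mean of the conditions. The lowest point is Znf597 with methapyrilene at -0.05 and the highest Septin9 with acetaminophen at 1.18.

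Treatments were then compared within each time, 7 contrasts for each of the 11 member regions, in fits that the choice of genes did not use. None of the 77 values at hepatectomy and none of the 77 at terminal euthanasia passed an adjusted p of 0.05 in limma, and over all regions 0% of 15809 and 0% of 16008 did in any contrast. At an unadjusted p under 0.05 there were 11 member values at hepatectomy (14.3% of 77, against 4.87% over all regions and contrasts) and 3 at terminal euthanasia (3.9% against 3.64%). The 77 values are not independent, since contrasts share libraries and regions share depth. The differences at hepatectomy ran from -0.79 to 1.03 (log2) and those at terminal euthanasia from -0.75 to 0.56.

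Of the 11 values at hepatectomy, 4 came from DEN at 30 mg/kg against 3 mg/kg, where 825 of the 15809 regions had an unadjusted p under 0.05. The 2nd Nr4a3 region was higher at the larger dose by 0.72 (SE 0.21), with 90.3 ± 8.27 against 56.4 ± 16.5 (SD, n = 5 each; limma adjusted p = 0.60). The 2nd Septin9 region differed by 0.63 (SE 0.25), Sox7 by 0.55 (SE 0.22) and Gp1bb by 0.51 (SE 0.22), each with a limma adjusted p of 0.91. At terminal euthanasia the Nr4a3 region again differed between the doses, by 0.49 (SE 0.22, limma adjusted p of 0.999). The doses also differ in the length of initiation. Against vehicle at hepatectomy, Sox7 differed by 0.46 (SE 0.22) with thioacetamide and by 0.53 (SE 0.22) with methapyrilene. DEN at 30 mg/kg gave 0.62 (SE 0.30) in Cdk5r1 and 1.03 (SE 0.49) in the sparse 1st Nr4a3 region. At terminal euthanasia DEN at 3 mg/kg gave 0.49 (SE 0.21) in the 3rd Septin9 region. Over all regions these contrasts had 702, 580, 1208 and 1363 values at an unadjusted p under 0.05 in limma. None of the member values passed the adjusted threshold, and they are given as measured.

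Phenobarbital against water, both after vehicle, gave an unadjusted p under 0.05 in limma for 1 member region, at terminal euthanasia. It did so for 507 of all 16008 regions at that time. At terminal euthanasia the 2nd Septin9 region was at 109 ± 17.8 after phenobarbital and at 76.0 ± 26.6 after water (SD, n = 5 each), a difference of 0.56 (SE 0.23) that did not pass (limma adjusted p = 1.00). With acetaminophen against vehicle, both followed by phenobarbital, the hepatectomy signal differed by -0.58 (SE 0.25) at the 2nd Septin9 region, by -0.42 at the 3rd and by -0.44 at Znf597, each with a limma adjusted p of 0.99. In that contrast 582 of all 15809 regions had an unadjusted p under 0.05 in limma. Znf597 stood at 94.6 ± 15.1 after acetaminophen and at 129 ± 16.1 after vehicle at hepatectomy (SD, n = 5 each). The authors' deposited table gives an unadjusted p-value of its own against the vehicle and phenobarbital group for these regions. Of its 132 values for the members, 4 were under 0.05 and the smallest, 0.0089, was for this Znf597 comparison. The share of the authors' values under 0.05 over all regions was not computed, so this count has no background beside it. The authors' values come from the same libraries as the limma differences and are not a separate check of them.

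Apart from the overlapping Septin5 region at 0.34, given above, the 8 regions had 14 nearest neighbouring regions of other genes that did not overlap them, 1.48 to 613 kb away. None of these passed the threshold. Their median difference was 0.02, with a range from -0.16 in Myo1d, beyond Cdk5r1, to 0.18 in Nat15, beside Znf597. Among these 14, Nat15 was the closest and had the largest difference (limma adjusted p = 0.59). Tbx1, next to Gp1bb, had -0.07.

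Relatives of the members came from lists of families and partners, of which those reported here hold 35 tested regions. None of these passed the adjusted threshold in limma in either direction, against 0.0671% higher and 0% lower over all regions. The lists are described one by one, beside a median of 0.05 over all regions. All 12 regions of the 11 other septin genes were above 0, where 70.4% of all tested regions were, with a median of 0.21 and a range from 0.03 in Septin8 to 0.42 in Septin11. These 12 include a pair of Septin7 transcripts with the same reads and the Septin5 region that overlaps that of Gp1bb. Septin11 went from 28.2 ± 11.9 to 37.3 ± 12.9 (SD, n = 35 each; limma adjusted p = 0.25).

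The 4 regions of the Cdk5 list had a higher median, 0.29, with 3 above 0. Among these partners of Cdk5r1, the kinase gene Cdk5 itself was level, at 101 ± 22.9 and 100.3 ± 22.7 (SD, n = 35 each), a difference of -0.01. The CDK5 regulatory subunit-associated genes Cdk5rap1 and Cdk5rap2 had differences of 0.27 (limma adjusted p = 0.28) and 0.40 (limma adjusted p = 0.62), the latter at a low mean of 11.1 to 14.6. Cdk5r2, which encodes the related activator p39, had 0.31 at a mean of 7.55 to 8.33 (limma adjusted p = 0.94). In the Sox family 9 of 11 regions were above 0, with a median of 0.11, led by Sox17 at 0.31 (limma adjusted p = 0.81), which like Sox7 acts in endothelium. Sox14 had 0.18.

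The other nuclear receptors of the family, Nr4a1 and Nr4a2, differed by 0.07 and 0.11. Fam110b and Fam110c had 0.13 and 0.00. The partners of Gp1bb in the platelet receptor, Gp1ba, Gp5 and Gp9, were at -0.11, -0.01 and 0.00.

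**Figure D4:**
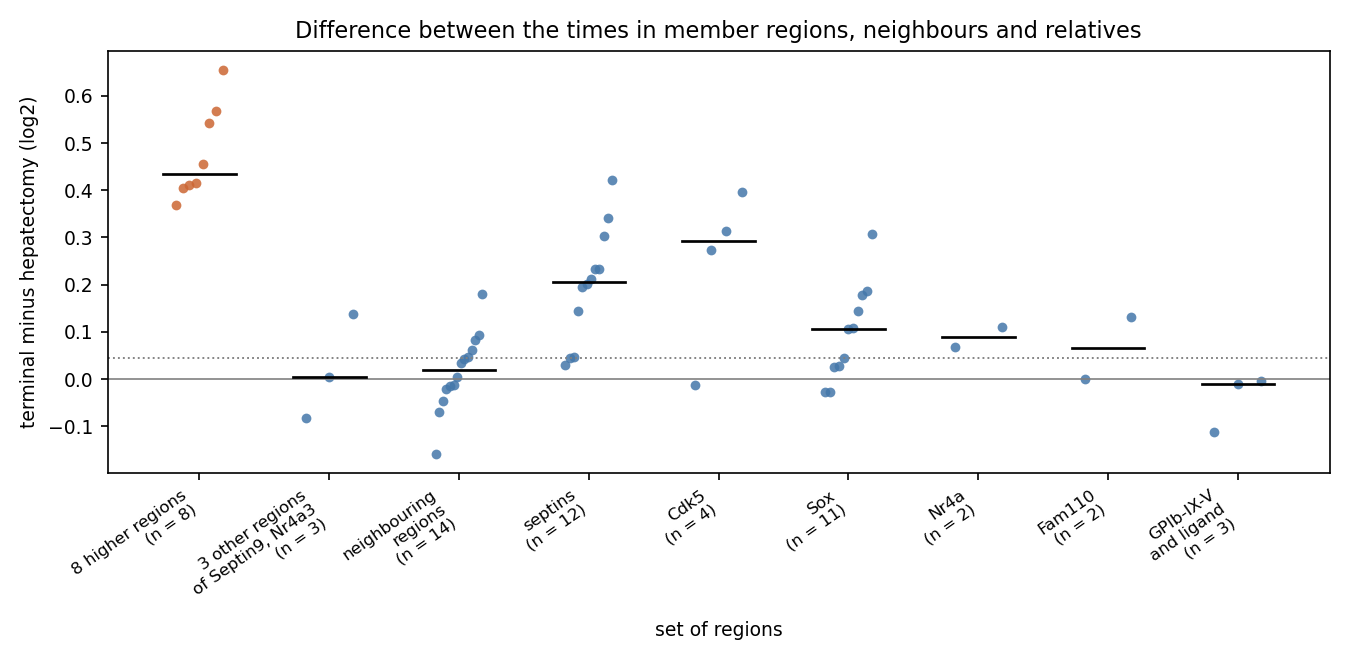
Difference between the times (log2) for the 8 higher regions, the 3 other regions of Septin9 and Nr4a3, the 14 neighbouring regions that do not overlap them and the related genes; black bars are medians, the dotted line is the median of all tested regions at 0.05. The 8 regions, chosen for this difference, run from 0.37 to 0.65, and the medians of the septins and of the Cdk5 list are 0.21 and 0.29.

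Within groups the 8 regions also moved together to some degree. After subtracting each group's mean, Pearson's r between pairs of regions over 70 libraries ran from 0.12 for Fam110a with Septin9 to 0.50 for Gp1bb with Arhgef2, with a median of 0.30 over 28 pairs, all above 0. The points share a library's depth and evenness, so these are descriptions. Such values were not computed for other pairs of regions, so whether these 8 differ from others in this is not known. Over the 70 libraries without that subtraction, the regions most like the members included other members: Znf597 was most like Gp1bb (r = 0.67), Sox7 had Gp1bb in the second place (r = 0.61), and the second most like Cdk5r1 was the 2nd Septin9 region (r = 0.54). Fam110a was most like Septin5 (r = 0.61), Gp1bb most like Insl3 (r = 0.72), Arhgef2 most like Ptprn2 (r = 0.68), the 2nd Septin9 region most like Cdc14b (r = 0.59), the 2nd Nr4a3 region most like Thtpa (r = 0.64), Sox7 most like Gpsm3 (r = 0.62) and Cdk5r1 most like Plcb3 (r = 0.57). The members' difference between the times enters these values.

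A deposited peak list set DEN at 30 mg/kg against a set it names PB, and it held 36231 peaks. None lay inside a member region, where 7.01% of all regions held at least 1. The closest to a member lay 2.56 kb from the Cdk5r1 region (chr10:68708605-68708789). The authors' count there was 20 reads in the set where the peak is higher, with the authors' enrichment factor at 6.31. The next lay 3.92 kb from Znf597 (chr10:11912108-11912287, 23 reads) and 4.42 kb from the 2nd Nr4a3 region (chr5:64724554-64724747, 20 reads). All 3 carry the earlier time in the list and are marked as hypermethylated with DEN.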

How the data were processed

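Methylated liver DNA was captured by a methyl-binding protein (MethylMiner) and sequenced on the SOLiD platform, per the labels' protocols. Groups came from titles and sample labels. The deposited region tables give 1 signal value per region and library, scaled by the authors. Within each library the values were whole multiples of 1 step (100% within a tolerance of 0.01), with 0.01 for no read, and the step was 50 M over a whole number. No source used here says what that number counts or names the aligner or build. Per the file headers, the tables also hold the authors' t-test p-value. The deposited peak list gives a read count and an enrichment factor, a ratio. Its time 11w is read here as terminal euthanasia, although the region table says 10W.

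Signal was tested as log2(value + 1) with limma 3.58.1 in R 4.3.3: 1 mean per group, a variance trend, Benjamini-Hochberg adjustment over all tested regions at 0.05, and at least 5 libraries at 10 or more. The fit was also run on simulated data with regions drawn independently of each other. That run therefore says nothing on effects shared by the regions of a library. Values were read with Python 3.11.15. Named relatives were those past the threshold, or otherwise up to 2 per family with the smallest p, and the 3 regions most alike by Pearson's r were found per member. The relatives of Arhgef2 are not reported here. Further relatives and neighbours named in the text were chosen after their values were seen. The members and lists were chosen with earlier results of these data known. Nothing says that libraries of 1 group came from separate animals, beyond 5 livers per group. p-values therefore measure the spread between libraries. Since region values are scaled signal, no count model was used.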

Additional observations from a re-analysis of the deposited data

Results flagged for a closer look

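Among the 154 groups of 5 libraries (11 regions in 14 groups), 7 had 1 library whose gap to the nearest other exceeded 0.71 of the group's range, where chance gives about 1 in 20 groups. At partial hepatectomy, the fifth vehicle and water library, whose reads were evenly spread, had 57.7 in the 1st Nr4a3 region against 6.00 to 12.3 in the others, and 74.9 in Znf597 against 111 to 120. The fifth thioacetamide library had 494 in Gp1bb against 239 to 273. The fifth library given DEN at 3 mg/kg had 38.99 in Arhgef2 against 70.8 to 83.6. At terminal euthanasia, the second library given DEN at 3 mg/kg had 209.3 in Sox7 against 85.4 to 100.2 and 98.8 in Cdk5r1 against 53.01 to 64.4. The fifth thioacetamide library had 209.2 in Sox7 against 79.6 to 111.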

How the results depend on the processing

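Of the 8 member regions called higher between the times, 8 stayed called under a pseudocount of 10 or 0.1, no filter on low values, quantile normalization, library number blocks as a covariate, either added scaling, without the 9 evenly spread libraries and without any single library. Without libraries 61 to 70 there were 7, since Nr4a3 had an adjusted p of 0.067 in limma. The number blocks were spread alike over the times in every condition, so they could not move the differences. The genes were chosen by this difference, so the member counts in these fits describe the choice and support nothing further. The count above 0 over conditions stayed at 55 of 56 in those fits, and was 52 to 56 leaving out 1 library. Over all regions, 11 to 14 were called higher leaving out 1 library, and 23 without the 9 evenly spread libraries. Regions called lower numbered 0, but 10 after quantile normalization, 5 after scaling to the summed signal, 5 after centring on the median region and 1 without libraries 61 to 70; leaving out 1 library gave 0 to 1, the 1 being without the first vehicle and phenobarbital library at terminal euthanasia. The cause was not tested. No member passed in the tests of time by condition or of treatments in any fit run. The added scalings were chosen after seeing the data. After each library's median was subtracted, the most alike region stayed the same for 7 of the 11 member regions; it changed for the 1st and 2nd Septin9 regions, Sox7 and Arhgef2.

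Same-numbered libraries at both times correlated by -0.38 to 0.68 (median 0.08, 35 pairs). In 11 pairs the correlation was over 0.1. In 21 of 35 a hepatectomy library correlated best with its own number, where chance gives 1 in 5, a hint of pairing from the data. The labels do not state a pairing and not every pair was over 0.1, so the numbers were not taken as pairs. Low values do not show that pairing is absent, since evenness of reads may enter them. The pair at 0.68, the third with DEN at 30 mg/kg, was evenly spread at both times. With the numbers as a replicate block, 14 regions were called higher, 8 of them members. Fits of edgeR and DESeq2 on recovered reads had been planned but were not run, because the deposited values are scaled and carry a placeholder for no read. Depth limits the 1st Nr4a3 region, which had 0 to 57 reads per library.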
